A study of Mus musculus with 16 samples.

Results

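The 9 genes described here mark the neurons of the brain that make or recycle catecholamines, serotonin, acetylcholine and glycine, cell groups that lie largely or in part in the brainstem. They were taken by name from 55404 genes measured in whole brain, and all 9 were found: Th, Dbh, Slc6a2, Slc6a3, Tph2, Slc6a4, Chat, Slc5a7 and Slc6a5. Both Tecpr2 alleles carry the L1152fs knock-in in Tecpr2 ki/ki mice, a frameshift introduced with CRISPR/Cas9 into C57BL/6J zygotes. The knock-in is present in every cell of the animal. The 8 Tecpr2 ki/ki mice and their 8 wt/wt controls, which carry the unedited gene, were untreated males of 5 months, with 1 library of total RNA per mouse. A whole brain mixes all regions and cell types.

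TECPR2 mutations cause a hereditary sensory and autonomic neuropathy in humans. The comparison asks whether transmitter genes used by brainstem and autonomic neurons, among others, differed between genotypes in whole brain. Which region the reads of a gene came from was not tested. Catecholamine neurons turn tyrosine into dopa with tyrosine hydroxylase (Th), and noradrenergic neurons, such as those of the locus coeruleus, turn dopamine into noradrenaline with dopamine beta-hydroxylase (Dbh). Released transmitter is taken up again by transporters that differ between the cell groups: Slc6a2 for noradrenaline, Slc6a3 for dopamine, Slc6a4 for serotonin and Slc6a5 for glycine. Tph2 makes the precursor of serotonin in the raphe nuclei, Chat makes acetylcholine, and Slc5a7 brings choline back into cholinergic terminals.

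RefSeq promoters of GRCm38.p6, an earlier build than that of the authors, were matched by symbol for 8 of the 9 genes, and no entry was matched for Slc6a2. The 250 bases before the start site are shown for the genes to which the results below return: Th, whose promoter holds a well-known cAMP response element (CRE), the serotonin genes Tph2 and Slc6a4, and Slc6a5, the gene with the widest spread among mice relative to counting error. They lie at chr7:142899996-142900245 (minus strand, Th), chr10:115185023-115185272 (minus strand, Tph2), chr11:76998347-76998596 (plus strand, Slc6a4) and chr7:49910049-49910298 (plus strand, Slc6a5, the more upstream of 2 entries). Capitals mark the CRE (TGACGTCA), its shorter core (TGACG, which the CRE also contains) and the TATA box (TATAAA), each searched on both strands.
Th: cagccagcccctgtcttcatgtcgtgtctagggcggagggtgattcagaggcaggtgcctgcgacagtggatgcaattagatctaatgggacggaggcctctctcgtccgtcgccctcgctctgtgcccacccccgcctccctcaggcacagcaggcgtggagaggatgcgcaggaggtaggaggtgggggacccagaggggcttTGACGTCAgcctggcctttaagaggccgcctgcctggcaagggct
Tph2: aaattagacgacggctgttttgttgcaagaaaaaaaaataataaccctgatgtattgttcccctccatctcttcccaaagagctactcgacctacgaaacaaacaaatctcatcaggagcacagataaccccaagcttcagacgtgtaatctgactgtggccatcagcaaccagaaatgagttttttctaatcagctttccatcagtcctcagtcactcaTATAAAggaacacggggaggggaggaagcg
Slc6a4: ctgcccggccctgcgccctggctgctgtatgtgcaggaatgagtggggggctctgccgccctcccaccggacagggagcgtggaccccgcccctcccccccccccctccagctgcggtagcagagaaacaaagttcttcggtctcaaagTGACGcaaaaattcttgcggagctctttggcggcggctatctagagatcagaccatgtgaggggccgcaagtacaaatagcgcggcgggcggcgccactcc
Slc6a5: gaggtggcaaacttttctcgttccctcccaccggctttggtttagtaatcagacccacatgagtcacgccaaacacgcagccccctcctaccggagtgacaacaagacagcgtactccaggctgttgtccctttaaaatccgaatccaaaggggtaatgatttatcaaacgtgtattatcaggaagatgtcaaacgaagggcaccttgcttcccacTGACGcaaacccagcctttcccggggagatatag
The CRE of Th begins 45 bases before its start site, and among the 8 matched genes it occurred in Th alone, against 1.55% of all 32851 RefSeq promoter windows. The shorter core was present in 5 of the 8 genes (Th, Dbh, Slc6a4, Chat and Slc6a5) and in 17.8% of all windows. A gene was counted if any of its windows matched, and Slc6a5 matched only in the more upstream of its 2 entries. The letters TATAAA were found for Tph2, 30 bases before the start, and for Slc5a7, 187 bases before it, against 12.4% of all windows. These matches describe letters and not the binding of a factor.

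Each library carried the Tecpr2 level of its label, with normalised read counts of 274 to 320 in the 8 Tecpr2 ki/ki mice and 928 to 1002 in the 8 wt/wt mice. The values of a mouse added up to between 11964284 and 12252324, and the steps that normalisation left among low values implied 9.23 to 15.39 megareads on genes. Snap25, a gene of neuronal terminals, had values of 13868 to 16811, and Mbp, a gene of myelin, of 24009 to 27931. Values are the authors' normalised read counts throughout, and differences are log2 fold changes of the value plus 1, Tecpr2 ki/ki minus wt/wt, from limma.

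None of the 9 transmitter genes differed between Tecpr2 ki/ki and wt/wt mice at a Benjamini-Hochberg adjusted p under 0.1 (limma), and 0 of 9 did so at an unadjusted p under 0.05. Over all 23244 genes tested, 31 (0.133%) passed the adjusted threshold and 1413 (6.08%) the unadjusted one. All 9 genes passed the filter on low values. The genotypes overlapped in each of the 9 genes, whereas 20 of the genes tested (0.086%) did not overlap. The mean was higher in Tecpr2 ki/ki mice for 7 genes and lower for 2, Tph2 and Slc6a2. The median log2 fold change was 0.03, against -0.001 over all genes tested. In bulk RNA, fewer cells of a type and less RNA per cell cannot be told apart, and this holds for every value that follows.

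**Figure D1:**
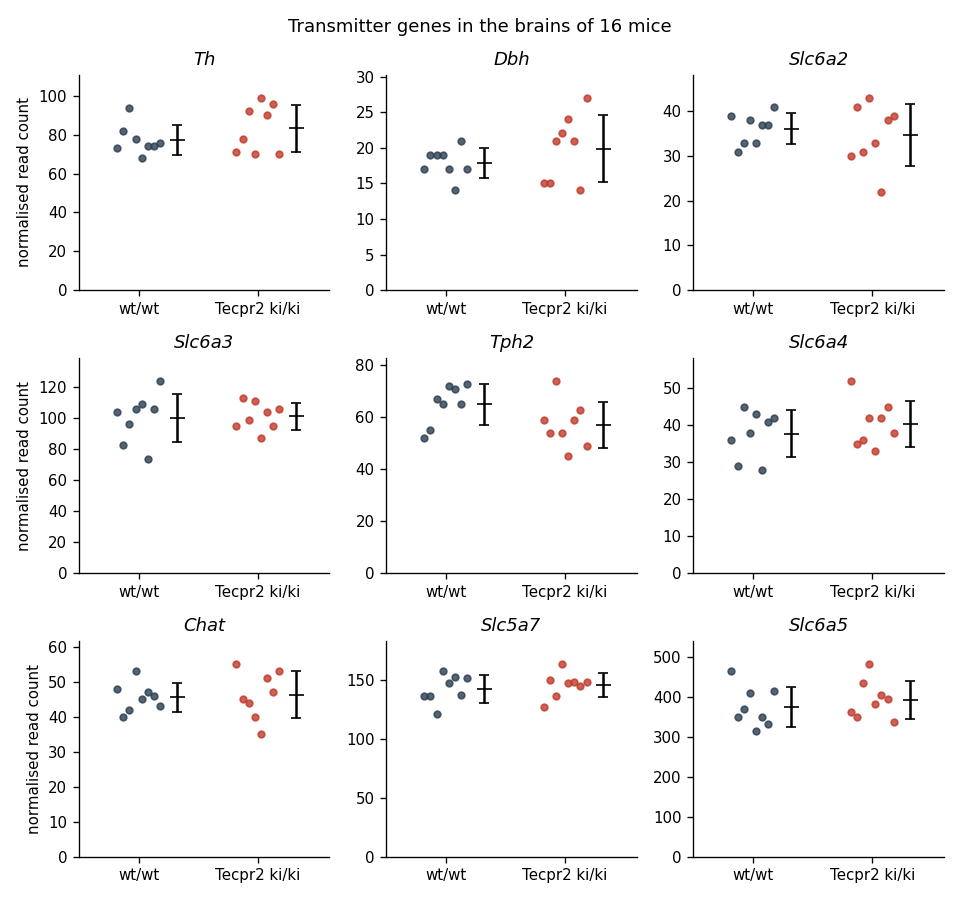
Normalised read counts (y axis, from 0) of the 9 transmitter genes in each of 8 wt/wt (dark) and 8 Tecpr2 ki/ki (red) mice (x axis), one panel per gene, with points for mice and black bars for mean and SD. The genotypes overlap in every panel, and Tph2, with means of 57.1 and 65.0, shows the clearest downward offset in Tecpr2 ki/ki mice.

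Set per kilobase of exon, for a rough comparison of genes, Slc6a5 had the highest level of the 9 genes, at 53.4 ± 6.70 (SD, n = 16 mice). It exceeded Th in 16 of 16 mice with ranges that did not overlap. The length used joins all annotated exons of a gene and can differ from that of the transcripts in use. The order of the genes depends on it. Th followed at 34.0 ± 4.41, Slc6a3 at 29.2 ± 3.57, Slc5a7 at 25.5 ± 1.94 and Tph2 at 21.2 ± 3.14 per kilobase (SD, n = 16). The ranges of these neighbours overlapped, and Th exceeded Slc6a3 in 12 of 16 mice, Slc6a3 exceeded Slc5a7 in 13 and Slc5a7 exceeded Tph2 in 14. A gap separated Tph2 from the lower group in every mouse: Chat at 9.75 ± 1.14, Slc6a4 at 8.62 ± 1.37, Dbh at 7.01 ± 1.37 and Slc6a2 at 5.62 ± 0.851 per kilobase. Within that group the ranges overlapped again, with 12 or 13 of 16 mice in the stated order for each pair of neighbours. By this measure the noradrenergic genes Dbh and Slc6a2 were thus the lowest of the 9.

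Among catecholamine genes, Th (ENSMUSG00000000214, chr7:142892752-142931128 of GRCm38, minus strand) had normalised read counts of 70, 84 and 99 (lowest, median, highest) in the 8 Tecpr2 ki/ki mice and 68, 75 and 94 in the 8 wt/wt mice. The highest Tecpr2 ki/ki mice, at 96 and 99, lay above every wt/wt mouse, but 3 others lay below the wt/wt median. The means were 83.25 ± 12.3 and 77.4 ± 7.84 (SD, n = 8), a log2 fold change of 0.10 with a 95% interval from -0.09 to 0.28 (limma, adjusted p = 0.928), and an exact two-sided permutation test gave p = 0.291. On the scale of the test, this interval runs from a level 5.86% lower to one 21.5% higher. The promoter with the CRE shown above is that of this gene.

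Dbh (ENSMUSG00000000889, chr2:27165233-27183200, plus strand), the enzyme particular to noradrenaline and adrenaline neurons, had the lowest values of the set. They were 14, 21 and 27 (lowest, median, highest) in Tecpr2 ki/ki and 14, 18 and 21 in wt/wt mice, so that 3 Tecpr2 ki/ki mice exceeded every wt/wt mouse and the lowest mice were equal. The means were 19.9 ± 4.73 and 17.9 ± 2.10 (SD, n = 8), and the log2 fold change was 0.12, with an interval from -0.22 to 0.46 that was the widest of the 9 genes (limma, adjusted p = 0.960). Slc6a2 (ENSMUSG00000055368, chr8:92960079-93001667, plus strand), which takes noradrenaline back up, had values of 22, 35.5 and 43 in Tecpr2 ki/ki and 31, 37 and 41 in wt/wt mice. Both the highest mouse and the 2 lowest mice carried the knock-in, and the log2 fold change of -0.08 had an interval from -0.34 to 0.18 (limma, adjusted p = 0.968). The noradrenaline enzyme and transporter thus had mean differences of opposite sign, neither of them larger than the spread between mice.

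Slc6a3 (ENSMUSG00000021609, chr13:73536747-73578672, plus strand), the uptake carrier of dopamine neurons of the midbrain, had nearly equal means of 101 ± 8.86 in Tecpr2 ki/ki and 100.25 ± 15.7 in wt/wt mice (SD, n = 8). Its values were 87, 101.5 and 113 (lowest, median, highest) against 74, 105 and 124, so that every Tecpr2 ki/ki mouse lay inside the wt/wt range. The log2 fold change was 0.03, with an interval from -0.15 to 0.20 (limma, adjusted p = 0.985).

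Tph2 (ENSMUSG00000006764, chr10:115078641-115185022, minus strand), the serotonin-making enzyme of the raphe, had the smallest p of the 9 genes. Its normalised read counts were 59, 54, 74, 54, 45, 59, 63 and 49 in Tecpr2 ki/ki mice 1 to 8 and 52, 55, 67, 65, 72, 71, 65 and 73 in wt/wt mice 1 to 8. Of the Tecpr2 ki/ki mice, 7 of 8 lay below the wt/wt median of 66 and 2 below every wt/wt mouse, while mouse 3 had the highest value of all 16. The means were 57.1 ± 8.94 and 65.0 ± 7.76 (SD, n = 8), and the log2 fold change was -0.19 (standard error 0.104, interval from -0.40 to 0.02). The difference did not pass in limma (p = 0.0750, adjusted p = 0.875) or in the exact two-sided permutation test (p = 0.0800). The log2 fold change was -0.24 without Tecpr2 ki/ki mouse 3 and -0.23 without wt/wt mouse 1. Limma's unadjusted p then fell under 0.05, as it did without wt/wt mouse 2, while the limma adjusted p stayed at 0.746 or more.

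Slc6a4 (ENSMUSG00000020838, chr11:76998603-77032340, plus strand), the uptake transporter of the same serotonin neurons, did not share the sign of Tph2. Its values were 33, 40 and 52 (lowest, median, highest) in Tecpr2 ki/ki and 28, 39.5 and 45 in wt/wt mice, with nearly equal medians and 4 Tecpr2 ki/ki mice on either side of the wt/wt median. The means of 40.4 ± 6.21 and 37.75 ± 6.36 (SD, n = 8) gave a log2 fold change of 0.10, with an interval from -0.15 to 0.35 (limma, adjusted p = 0.952). Slc18a2, which loads all monoamines into vesicles, had a log2 fold change of -0.05 (interval from -0.16 to 0.05; limma, adjusted p = 0.931).

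Chat (ENSMUSG00000021919, chr14:32408203-32465989, minus strand) had the smallest difference of the 9 genes, with values of 35, 46 and 55 (lowest, median, highest) in Tecpr2 ki/ki and 40, 45.5 and 53 in wt/wt mice. The lowest and the highest mouse both carried the knock-in, and 4 Tecpr2 ki/ki mice lay on either side of the wt/wt median. The log2 fold change was 0.01, with an interval from -0.21 to 0.24 (limma, adjusted p = 0.993). Slc18a3, the vesicular transporter of acetylcholine, lies inside Chat on the same strand, and reads that fall on both genes could be counted for either or for neither. It had means of 34.0 ± 5.18 in Tecpr2 ki/ki and 37.5 ± 5.40 in wt/wt mice (SD, n = 8; limma, adjusted p = 0.924). Slc5a7 (ENSMUSG00000023945, chr17:54273590-54299034, minus strand), the choline transporter of cholinergic terminals, was the most precisely measured of the 9 genes. Its values were 127, 147.5 and 163 in Tecpr2 ki/ki and 121, 142 and 157 in wt/wt mice, with 6 of 8 Tecpr2 ki/ki mice above the wt/wt median. Its log2 fold change of 0.03 had an interval from -0.10 to 0.17 (limma, adjusted p = 0.974), which on the scale of the test runs from 6.71% lower to 12.5% higher.

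Slc6a5 (ENSMUSG00000039728, chr7:49910146-49963856, plus strand), the transporter that marks glycinergic neurons, had the highest values of the set. The share of each brain region in these whole-brain values was not tested. Its normalised read counts were 362, 349, 435, 482, 382, 405, 395 and 337 in Tecpr2 ki/ki mice 1 to 8 and 466, 350, 369, 409, 315, 350, 332 and 414 in wt/wt mice 1 to 8. The spread within a genotype was wide, and the highest wt/wt mouse lay below only 1 Tecpr2 ki/ki mouse. The means were 393 ± 47.8 and 376 ± 50.3 (SD, n = 8), a log2 fold change of 0.07 with an interval from -0.12 to 0.26 (limma, adjusted p = 0.955). Although Slc6a5 had the most reads of the set, its SD within a genotype on the log2 scale, 0.179, was that of Th, also 0.179.

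**Figure D2:**
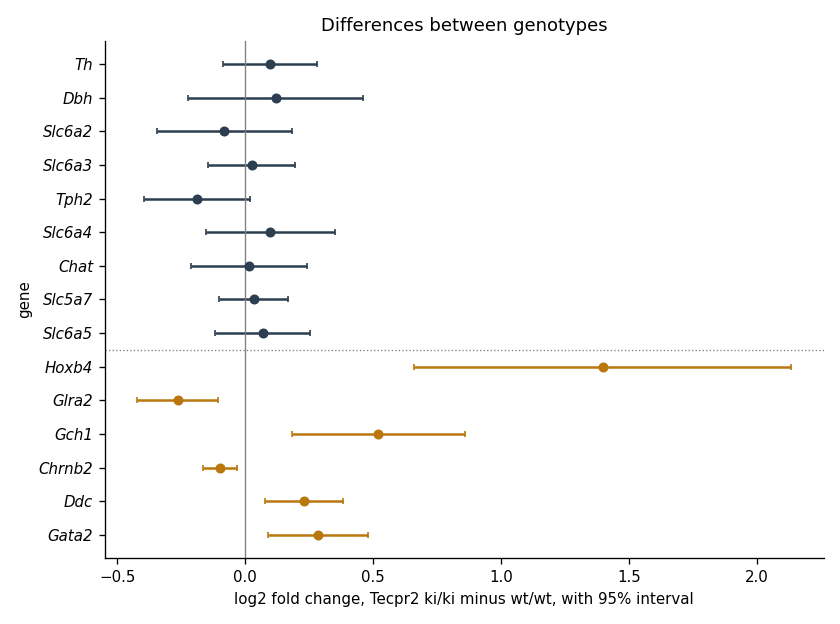
Log2 fold change of Tecpr2 ki/ki against wt/wt mice (x axis, points) with its 95% interval (bars) for the 9 transmitter genes (above the dotted line) and for the genes of the related lists with an unadjusted p under 0.01 (below it). All 9 intervals of the transmitter genes include 0, and none of the 15 genes passed the adjusted threshold.

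The other genes of the same pathways were compared by lists of enzymes, transporters, receptors, transcription factors and regional markers. Of their 124 genes, 94 were tested, 46 had a higher and 48 a lower mean with the knock-in, and 0 passed an adjusted p under 0.1. At an unadjusted p under 0.05 there were 7 higher and 6 lower, against 3.07% and 3.01% of all genes tested in these directions, and the median log2 fold change was -0.01. These counts include the 3 tested Hox genes, all higher and 1 of them at an unadjusted p under 0.05. Those Hox genes passed the filter on low values through the Tecpr2 ki/ki mice alone, which favoured a higher mean there. Of monoamine synthesis, storage and breakdown, 12 of 14 genes were tested, with 6 higher and 6 lower. Of monoamine receptors, 25 of 26 genes were tested, with 13 higher and 12 lower, of acetylcholine genes 20 of 20, with 7 higher and 13 lower, and of glycine genes 13 of 13, with 5 higher and 8 lower. No single gene of these lists was called, and the lists as groups were not tested.

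A limma p under 0.01 before adjustment was seen for 6 of the 94 genes, against 1.56% of all genes tested. The 6 include Hoxb4, which passed the filter on low values through the Tecpr2 ki/ki mice alone. Glra2, Chrnb2, Ddc, Gata2 and Hoxb4 also stand in the gene table of the study, which was made from these mice, so their direction here is not independent evidence. That of Gch1 rests on these same mice alone. Ddc, the enzyme after Th that makes dopamine and also serotonin, had values of 124, 142 and 160 (lowest, median, highest) in Tecpr2 ki/ki and 95, 124.5 and 143 in wt/wt mice. Of the Tecpr2 ki/ki mice 7 of 8 lay above the wt/wt median, and the difference was 0.23 on the log2 scale (standard error 0.0766, exact two-sided permutation p = 0.0169, limma adjusted p = 0.513). Gch1, which makes the tetrahydrobiopterin that both Th and Tph2 need, had values of 20, 29 and 36 against 12, 17.5 and 31. All 8 Tecpr2 ki/ki mice lay above the wt/wt median, with a difference of 0.52 on the log2 scale (standard error 0.170, exact two-sided permutation p = 0.0172, limma adjusted p = 0.472). The other tetrahydrobiopterin genes of the list had log2 fold changes of 0.02 (Pts), -0.03 (Spr), -0.03 (Qdpr) and -0.23 (Pcbd1), with limma adjusted p-values of 0.875 or more.

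Among receptors, Glra2, a glycine receptor subunit prominent in the immature brain, had values of 95, 103.5 and 134 (lowest, median, highest) in Tecpr2 ki/ki and 113, 128.5 and 159 in wt/wt mice, and 5 Tecpr2 ki/ki mice lay below every wt/wt mouse. Its log2 fold change was -0.26 (exact two-sided permutation p = 0.00917, limma adjusted p = 0.315). The adult subunit Glra1 had means of 208 ± 20.9 and 210 ± 20.2 (SD, n = 8), a log2 fold change of -0.01 with an interval from -0.14 to 0.11. Chrnb2, a subunit of the main nicotinic receptor of the brain, had a log2 fold change of -0.10 (exact two-sided permutation p = 0.00575, limma adjusted p = 0.498), and all 8 Tecpr2 ki/ki mice lay below the wt/wt median. Chrna4, another nicotinic subunit of the acetylcholine list, had a log2 fold change of -0.03, with an interval from -0.10 to 0.05 (limma, adjusted p = 0.958). Drd1, a dopamine receptor of the striatum, had the smallest limma p of the monoamine receptors, with a log2 fold change of -0.12 (exact two-sided permutation p = 0.0222, limma adjusted p = 0.648). Adra1a, an adrenergic receptor, had the opposite sign, 0.12 (exact two-sided permutation p = 0.0140, limma adjusted p = 0.664).

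Of the 18 transcription factors of these neurons, 12 were above 0 in every mouse and 11 were tested, of which 5 had a higher and 6 a lower mean with the knock-in. Nr4a2, a factor of midbrain dopamine neurons, had means of 323 ± 23.5 and 332 ± 28.4 (SD, n = 8), a log2 fold change of -0.04 with an interval from -0.14 to 0.06. Gata2, a factor of GABAergic and serotonergic precursors, had values of 58, 70 and 76 (lowest, median, highest) in Tecpr2 ki/ki and 48, 55 and 65 in wt/wt mice. It differed by 0.28 on the log2 scale (exact two-sided permutation p = 0.00171, limma adjusted p = 0.531). Gata3, its relative in serotonin neurons, had a log2 fold change of 0.08 (interval from -0.18 to 0.35). Fev, the factor that defines serotonin neurons, had values of 0 to 6 in either genotype and was not tested, as were Phox2a, at 0 to 2, and Pitx3, at 0 to 5. Hand2 was at 0 in all 16 mice. At this depth, differences in these untested factors were not detectable.

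The spread between mice was close to the counting error for 8 of the 9 genes. From the implied depth, counting of reads alone gives a variance of 0.987 times the mean. The observed ratio of variance to mean lay between 0.672 (Chat) and 1.61 (Slc6a3) for those 8 genes, and it was 6.26 for Slc6a5. On the log2 scale the SD of Slc6a5 within a genotype was 0.179, against 0.0731 from counting, and that of Dbh was 0.265 against 0.330. For Dbh, Slc6a2, Slc6a4, Chat and Slc5a7, whose observed SD was at most 1.01 times that from counting, a spread between animals beyond counting was therefore not detectable at this depth.

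**Figure D3:**
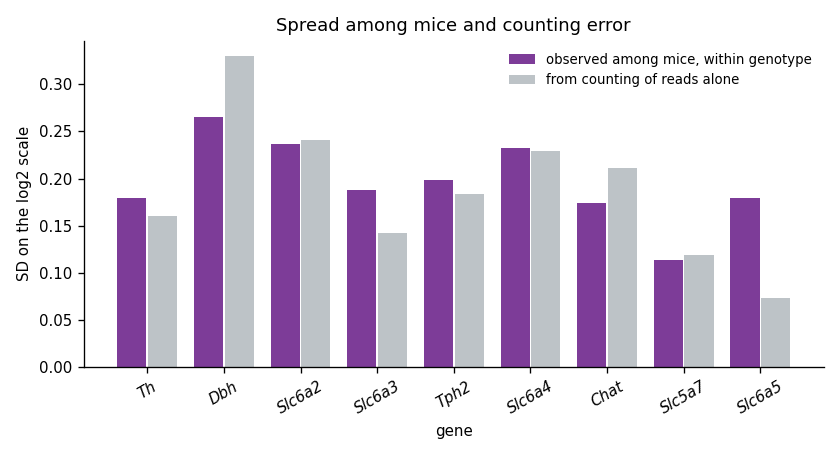
SD of log2(normalised read count + 1) (y axis, from 0) for each transmitter gene (x axis), as observed among mice within a genotype (purple, 16 mice) and as counting of reads alone would give at the implied depth (grey). The bars of a gene differ most for Slc6a5, where the observed SD of 0.179 stands against 0.0731. For the other genes the observed SD was between 0.804 (Dbh) and 1.32 (Slc6a3) times that from counting.

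The variation of Slc6a5 ran with that of Hox genes, which stay active in the caudal hindbrain and spinal cord and so mark the caudal end of the tissue. The Hox gene score is the mean log2(value + 1) of 16 genes, of which 3 passed the filter and 4 were above 0 in every mouse. Summed over the list, Tecpr2 ki/ki mice had a median of 44 (25 to 77) and wt/wt mice a median of 29.5 (14 to 44). Over the 16 mice, Slc6a5 and the score had a Pearson r of 0.67 (permutation p = 0.00441, adjusted over 6 relations p = 0.0265) and a Spearman rho of 0.68 (permutation p = 0.00447, adjusted p = 0.0268). Within genotypes r was 0.77 in Tecpr2 ki/ki mice (exact permutation p = 0.0258, n = 8) and 0.57 in wt/wt mice (exact permutation p = 0.142, n = 8). Without the 2 mice farthest from the median of Slc6a5, Tecpr2 ki/ki mouse 4 and wt/wt mouse 1, r was 0.63 (permutation p = 0.0150). The adjusted p was above 0.05 when Tecpr2 ki/ki mouse 3 (r = 0.65, permutation adjusted p = 0.0545), Tecpr2 ki/ki mouse 4 (r = 0.63, permutation adjusted p = 0.0639) or wt/wt mouse 7 (r = 0.63, permutation adjusted p = 0.0728) was left out.

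Hoxb4, the Hox gene with the smallest p, had values of 4, 7 and 12 (lowest, median, highest) in Tecpr2 ki/ki and 0, 2.5 and 6 in wt/wt mice, and differed by 1.40 on the log2 scale (exact two-sided permutation p = 0.00202, limma adjusted p = 0.165). The limma adjusted p was 0.0965 without wt/wt mouse 3. All 3 Hox genes tested, Hoxb4 among them, passed the filter on low values through the Tecpr2 ki/ki mice alone, so that filter favoured a higher mean in that genotype, and neither their direction nor these p-values support a difference. Over all 16 Hox genes, without a filter, the mean was higher in Tecpr2 ki/ki mice for 13, lower for 2 and equal for 1, at values close to 0 for most. What part the amount of caudal tissue in each sample had in the values of Slc6a5 was not tested.

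**Figure D4:**
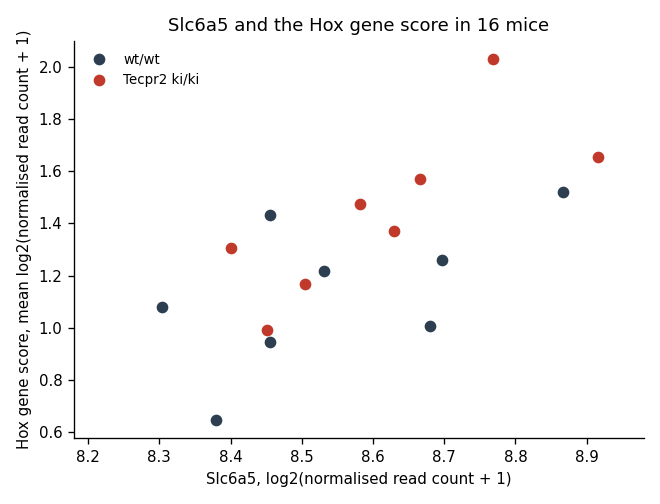
Hox gene score (y axis, mean log2 of normalised read count plus 1 over 16 genes) against Slc6a5 (x axis, log2 of normalised read count plus 1) in 8 wt/wt (dark) and 8 Tecpr2 ki/ki (red) mice, one point per mouse. The score is higher where Slc6a5 is higher, with a Pearson r of 0.67.

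Genes of the same neurons did not vary together in a way that could be detected. Over the 16 mice r was -0.32 for Th and Slc6a3, 0.10 for Th and Dbh, -0.13 for Dbh and Slc6a2, 0.20 for Tph2 and Slc6a4 and -0.05 for Chat and Slc5a7, with permutation p-values adjusted over the 6 relations of 0.694 or more. Spearman's rho was -0.45, 0.03, -0.07, 0.26 and 0.03 in the same order, with adjusted permutation p-values of 0.241 or more. Without the 2 mice farthest from the median of the gene named first, r was -0.18, 0.13, -0.23, 0.07 and 0.25. With values centred within genotype, r lay between -0.43 (Th and Chat) and 0.54 (Slc6a3 and Slc6a4) over all 36 pairs, with a median of 0.04 and 19 pairs above 0. The pair Slc6a3 and Slc6a4 had the smallest p for r (permutation p = 0.0451, adjusted over the 36 pairs p = 0.837), with a rho of 0.32 (permutation p = 0.243). Slc6a2 and Slc6a3 had the smallest p for rho, at 0.57 (permutation p = 0.0191, adjusted over the 36 pairs p = 0.451), followed by Slc6a2 and Slc5a7 with a rho of 0.54 (permutation p = 0.0250, adjusted p = 0.451). All pairs share the 16 libraries, and the spread of 8 of the 9 genes is close to counting error, which limits any correlation.

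**Figure D5:**
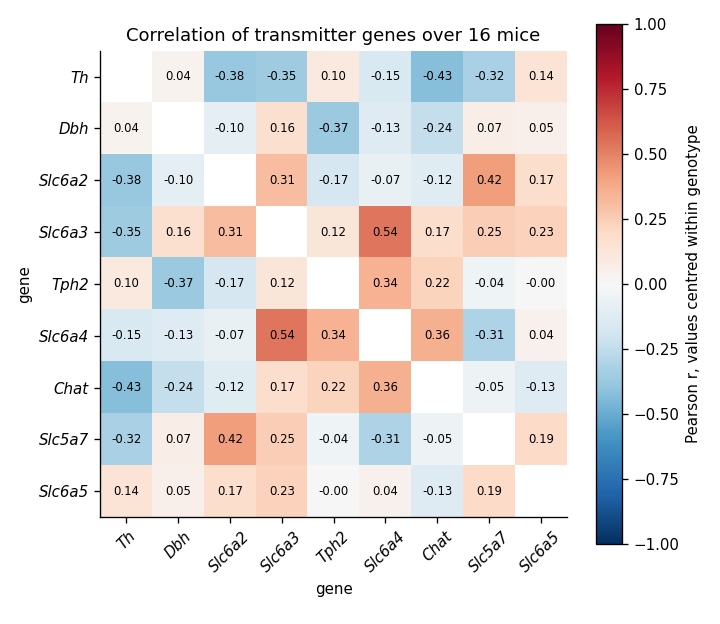
Pearson r between each pair of the 9 transmitter genes (both axes) over 16 mice, with log2 values centred within genotype, from -1 (blue) to 1 (red). The values lie between -0.43 and 0.54, with Tph2 and Slc6a4 at 0.34, Th and Dbh at 0.04, Chat and Slc5a7 at -0.05, Dbh and Slc6a2 at -0.10 and Th and Slc6a3 at -0.35 among the partners in the same neurons.

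The genes most like each transmitter gene over the 16 mice were ranked by r of centred log2 values among 17089 genes with a mean value of at least 20, as a description and with no test, since the highest of so many genes is high for any gene. Those of Slc6a5 were Tcaim (r = 0.86), Syt2 (r = 0.81), a synaptotagmin of fast synapses in the hindbrain and spinal cord, and Gpd1l (r = 0.80). Glra1, the receptor subunit at adult glycine synapses, ranked 17th with r = 0.73, and Slc32a1, which loads glycine and GABA into vesicles, ranked 575th with r = 0.51. For Tph2 the leading genes were Pcyt2, Klhl5 and Gm7887 (r from 0.81 to 0.82), and Slc6a4, its partner in serotonin neurons, ranked 2147th with r = 0.34. Those of Slc6a4 were Fastkd1, Gm15832 and Prmt5 (r from 0.83 to 0.84).

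Th was followed most closely by Rpp14, Glo1 and Itm2c (r from 0.83 to 0.85), Dbh by Bloc1s1, Gm26901 and Gm44101 (r from 0.80 to 0.82), Slc6a2 by AC156546.1, Ttll11 and 1700063D05Rik (r from 0.82 to 0.86) and Slc6a3 by Gm20548, Selenoh and Gm9174 (r from 0.80 to 0.82). Slc6a3, the dopamine partner of Th, ranked only 15279th for Th, with r = -0.35. For Chat they were Gm17068, Gm42737 and Cd80 (r from 0.80 to 0.88), and for Slc5a7 Epha5, Rnaseh2c and Thsd7b (r from 0.79 to 0.85). Chat ranked 9703rd for Slc5a7, with r = -0.05, and Slc18a3, the third gene of cholinergic terminals, ranked 1897th with r = 0.33. Among the partner genes examined, that of Slc6a5 and Glra1 was the highest rank.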

How the data were processed

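The authors sequenced stranded total RNA libraries of whole brain (8 mice per genotype) after ribosomal RNA depletion. Per the labels, Trim Galore 0.6.10, cutadapt 3.4, STAR 2.7.10b and DESeq2 1.40.2 were used, and per the methods reads were aligned to GRCm39 and counted with summarizeOverlaps. Whether counting used strand is not given in the sources used here. The deposited values are a score: counts normalised by the authors by an unnamed method and rounded, so no count test was run.

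Genes with a summed value above 16, and values above 5 in 4 or more mice of either genotype, were tested on log2(value + 1), which understates changes of low genes. Genotype was the only term in limma 3.58.1 (R 4.3.3; variance trend, robust eBayes), with Benjamini-Hochberg adjustment over 23244 genes at 0.1. This step was tested on simulated data. Single values were compared by exact permutation over 12870 splits (smallest p 0.000155) and correlations by 100000 resamples (Python 3.11.15, numpy 2.4.6, scipy 1.17.1).

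The genes and lists were chosen with earlier results of these data known. Named genes are the 9 transmitter genes, Tecpr2, list genes with an adjusted p under 0.1 or a p under 0.01, the list gene with the smallest p per list, and the 3 genes most like each transmitter gene. Partner genes, transcription factors and markers given as values, and the promoter motifs, were added after values or sequences had been seen. Symbols (52017 of 55404 identifiers), positions and exon lengths are from GENCODE for GRCm38, and promoters from RefSeq.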

Additional observations from a re-analysis of the deposited data

How the results depend on the processing

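Under all 22 alternatives, 0 of the 9 transmitter genes passed an adjusted p under 0.1, and the smallest adjusted p was 0.746 (Tph2). Over all genes, the count of 31 became 20 without a filter on low values (41926 genes tested) and 16 in limma without trend and robust, where the cause was not tested, and lay between 25 and 40 with 1 mouse left out. The pathway lists gave 0 or 1 called gene with 1 mouse left out (Hoxb4, without wt/wt mouse 3). With 1 mouse left out, the log2 fold change ranged from -0.023 to 0.068 for Chat, from -0.13 to 0.0056 for Slc6a2 and from -0.034 to 0.071 for Slc6a3, all of them changing sign. It kept its sign for Th (0.059 to 0.14), Dbh (0.055 to 0.18), Slc6a4 (0.042 to 0.14), Slc5a7 (0.0024 to 0.062), Slc6a5 (0.025 to 0.11) and Tph2 (-0.24 to -0.14), though these values too moved with single mice. Correlations then ranged from -0.19 to 0.16 for Chat and Slc5a7, from -0.078 to 0.30 for Th and Dbh, from -0.54 to -0.22 for Th and Slc6a3 (smallest unadjusted permutation p = 0.0360, adjusted p = 0.108), from -0.27 to -0.012 for Dbh and Slc6a2, from 0.080 to 0.42 for Tph2 and Slc6a4 and from 0.63 to 0.73 for Slc6a5 and the Hox gene score, whose adjusted p reached 0.0728. The other scalings and the other pseudocount gave 31 to 34 called genes, and these and centring within genotype changed no direction and no call of the transmitter genes and correlations.

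Replicate numbers did not clearly pair the mice. Over 11241 genes, the deviations of same-numbered mice had an r above 0.1 in 1 of 8 pairs (r from -0.05 to 0.15). Of 8 mice, 2 correlated best with their own number. With the replicate number as a block, 46 genes and 0 transmitter genes were called. Depth limits genes with low values, such as Dbh, the Hox genes and several transcription factors. Rounding merges neighbouring counts, and fold changes of low genes are understated.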

Other observations

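Markers of regions at the edges of a whole brain sample were measured beside the transmitter genes. In the olfactory bulb list, 4 of 5 genes were tested and 0 called, and their summed values were 117 to 171 in Tecpr2 ki/ki and 108 to 163 in wt/wt mice, with a median of 140 in both. Sp8, with the smallest p of that list, had a log2 fold change of 0.24 (exact two-sided permutation p = 0.212, limma adjusted p = 0.902). Th is also made in the olfactory bulb, and what part the amount of bulb tissue in each sample had in its values was not tested.

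The pituitary hormone genes Gh and Prl were at 0 in all 16 mice, while Tshb, a subunit of thyrotropin, had values of 29 to 48 in Tecpr2 ki/ki and 27 to 40 in wt/wt mice (log2 fold change 0.19, exact two-sided permutation p = 0.125, limma adjusted p = 0.902). Cga, another gene of that list, had values of 0 in every Tecpr2 ki/ki mouse and of 0 to 1 in wt/wt mice. The source of the Tshb reads was not tested. Among genes of peripheral sensory and motor neurons, 4 of 6 were tested and 0 called, with 3 higher and 1 lower. Avil, a gene of sensory ganglia, had values of 11 to 18 in Tecpr2 ki/ki and 6 to 16 in wt/wt mice, with a log2 fold change of 0.35 (exact two-sided permutation p = 0.0710, limma adjusted p = 0.878), and all 8 Tecpr2 ki/ki mice lay above the wt/wt median. Prph, a filament gene of peripheral neurons, had values of 20 to 31 against 20 to 41 and a log2 fold change of -0.24 (exact two-sided permutation p = 0.110, limma adjusted p = 0.890), and 7 of 8 Tecpr2 ki/ki mice lay below the wt/wt median.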
